A study of Rattus norvegicus with 6 samples.

Results

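The genes described here encode 9 enzymes and enzyme subunits of the tricarboxylic acid cycle and its malate shuttle step, chosen by name from the 17051 genes listed for rat kidney: Cs, Idh2, Idh3a, Idh3g, Ogdh, Suclg1, Suclg2, Mdh1 and Mdh2. RNA was sequenced from the kidney of 6 male Sprague Dawley rats. In the control group (AL, rats 61, 71 and 88) standard powdered chow was available ad libitum, and in the hyperammonemic diet group (HD, rats 64, 67 and 69) the powdered chow was mixed with amino acids in the proportions of hemoglobin. Both diets lasted 7 days, and the rats were assigned to them at random. The age of the rats is not given in the sources used here, and each library came from 1 rat, so the spread within a group is that between animals. The study asked how the kidney adapts its metabolism when it has to produce more ammonia.

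The cycle oxidizes acetyl-CoA in the mitochondrial matrix, passing electrons to the respiratory chain. In the kidney it is also the path by which the carbon of glutamine is disposed of: once glutamine has given up its nitrogen as ammonia, the remaining 2-oxoglutarate enters the cycle, is turned into malate or oxaloacetate, and can leave as glucose. Proximal tubule cells are rich in mitochondria and carry out most of this work. Because RNA was taken from kidney tissue and not from sorted cells, fewer cells of a type and less RNA per cell cannot be told apart.

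All 9 genes were far above the count minimum, with estimated counts between 1062 (Cs) and 27802 (Mdh1) in a rat. The libraries held 13221487 to 16455405 estimated counts in AL and 12499945 to 30466461 in HD. The enzymes took 0.350 to 0.371% of the counts in AL and 0.370 to 0.392% in HD. Counting error was at most 3.07% of a value (Cs), below the spread between rats of the same diet, which ran from 5.58% (Idh3g) to 16.0% (Suclg1), so the number of rats rather than the depth limited the precision.

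Each gene was listed with a single transcript. In the rn5 coordinates of the files, Cs (NM_130755, 11 exons) lies on chr7:2731092-2757427, Ogdh (NM_001017461, 23 exons) on chr14:87376161-87441984, Idh3a (NM_053638, 12 exons) on chr8:57745463-57764761 and Suclg2 (NM_001100750, 11 exons) on chr4:192061200-192333899. Idh3g (NM_031551, 13 exons) is placed on chr1:152747892-152757622 in these files, whereas RefSeq places the gene on chromosome X in GRCr8. The values are sums over the exons of the transcript, untranslated parts included, and reads shared with near-identical copies elsewhere in the genome could not be examined here.

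The promoters of Cs, Idh3g, Ogdh and Suclg2 are shown because these genes had either an unadjusted P below 0.05 or HD levels that were all above the AL levels, and a RefSeq entry. Idh3a is the other such gene and had no entry. Each line gives the 250 bases before the transcription start in RefSeq GRCr8, 5′ to 3′ on the strand of the gene, with matches to the searched motifs in capitals.
Cs, chr7:1348139-1348388, plus strand: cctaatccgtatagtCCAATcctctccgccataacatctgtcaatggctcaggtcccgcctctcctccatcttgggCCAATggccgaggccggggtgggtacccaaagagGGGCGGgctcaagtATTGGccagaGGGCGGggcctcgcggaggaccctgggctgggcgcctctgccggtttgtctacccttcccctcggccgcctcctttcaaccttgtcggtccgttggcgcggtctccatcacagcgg
Idh3g, chrX:156675483-156675732, minus strand: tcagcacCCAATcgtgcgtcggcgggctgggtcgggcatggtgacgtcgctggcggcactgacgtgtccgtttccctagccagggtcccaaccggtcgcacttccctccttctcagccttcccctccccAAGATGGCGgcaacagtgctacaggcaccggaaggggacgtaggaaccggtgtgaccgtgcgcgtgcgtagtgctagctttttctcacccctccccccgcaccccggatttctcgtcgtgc
Ogdh, chr14:85363781-85364030, plus strand: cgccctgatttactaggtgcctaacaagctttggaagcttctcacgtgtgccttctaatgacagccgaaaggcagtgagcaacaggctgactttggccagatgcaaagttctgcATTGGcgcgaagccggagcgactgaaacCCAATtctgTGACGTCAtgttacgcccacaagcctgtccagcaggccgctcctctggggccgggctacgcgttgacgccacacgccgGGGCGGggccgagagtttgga
Suclg2, chr4:129893938-129894187, minus strand: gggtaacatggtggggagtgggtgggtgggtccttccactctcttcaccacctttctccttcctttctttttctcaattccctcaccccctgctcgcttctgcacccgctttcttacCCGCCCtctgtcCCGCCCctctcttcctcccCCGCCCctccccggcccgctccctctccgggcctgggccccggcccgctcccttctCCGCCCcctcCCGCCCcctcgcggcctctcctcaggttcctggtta
The searched motifs were the CCAAT box (CCAAT), the GC box (GGGCGG), the cAMP response element (TGACGTCA), the YY1 motif (AAGATGGCG), the NRF1 motif (GCGCA and GCGC separated by any 1 base) and the estrogen-related receptor site (AAGGTCA), on both strands. A capital run that reads CCGCCC or ATTGG is a match on the opposite strand. Of 8 enzymes with an entry, 5 held a CCAAT box and 5 a GC box, motifs found in 34.0% and 30.5% of 33469 rat promoters. Suclg2 carried 5 GC boxes and Cs 2 GC boxes with 3 CCAAT boxes. The cAMP response element was present in Ogdh and Mdh2 and in 1.59% of promoters, and the YY1 motif in Idh3g and in 0.693% of promoters. NRF1 and estrogen-related receptors are known regulators of genes for mitochondrial proteins, and their motifs as spelled here were found in 3.75% and 3.99% of promoters and in none of these 8 windows, which says nothing about the factors themselves.

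HD was compared with AL to ask whether the diet was accompanied by a different level of cycle enzyme transcripts. Transcript levels of 8 of 9 enzymes were higher on average in HD, by 1.06-fold (Mdh2) to 1.39-fold (Ogdh), and Idh2 was level at 0.996-fold. None passed the test: 0 of 9 had an adjusted P of at most 0.05 (edgeR quasi-likelihood test, Benjamini-Hochberg over 11553 tested genes), as did 0 of all tested genes (0.0%). DESeq2, which called 1.58% of the genes it tested, also called none of the 9. At an unadjusted P below 0.05 there were 3 enzymes, Cs, Idh3g and Ogdh, all higher in HD, where 4.66% of all tested genes were higher by the same rule. DESeq2 gave 2, Idh3g and Ogdh, with 11.5% of all tested genes below that P in either direction. The median log2 fold change of the 9 was 0.21, against 0.01 for all tested genes, of which 51.3% had a log2 fold change above 0. In the fits that left out rat 88, 64 or 69, no enzyme had an unadjusted P below 0.05, a P that 5.26%, 5.53% and 15.6% of all genes had in these fits.

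**Figure D1:**
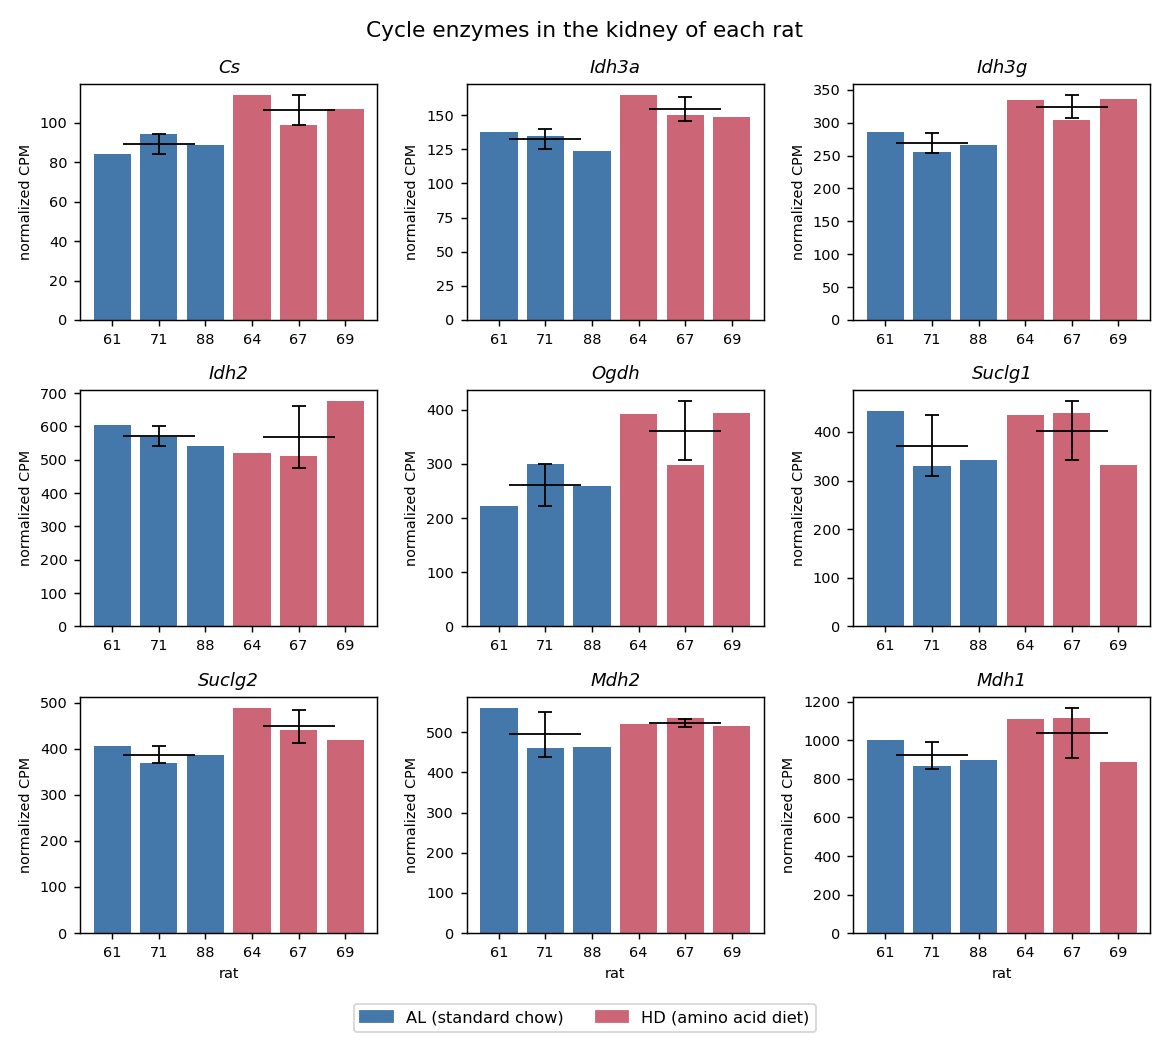
Counts scaled to the normalized library size (CPM) of each cycle enzyme in the kidney of each rat, with 1 bar per rat (blue AL, red HD); the horizontal line is the group mean and the error bar its SD (n = 3). All HD bars are above all AL bars for Cs, Idh3a, Idh3g and Suclg2, while the groups overlap for the other 5 enzymes.

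Levels within a gene are given below as counts scaled to the TMM-normalized library size (CPM), and differences as log2 fold changes of HD over AL with their standard errors (SE). On this scale every HD rat was above every AL rat for 4 of 9 enzymes, Cs, Idh3a, Idh3g and Suclg2, compared with 7.25% of all tested genes, and for 0 of 9 was every HD rat below every AL rat (7.01% of all tested genes). The count depended on the scaling. With the deposited TPM it was 1 of 9 (Suclg2; 4.25% of all tested genes) and with CPM by library size alone 2 of 9 (Idh3g and Suclg2; 4.1% of all tested genes).

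Cs encodes citrate synthase, which joins acetyl-CoA to oxaloacetate and so opens the cycle. Its level was 84.4, 94.5 and 88.8 CPM in AL rats 61, 71 and 88, and 114, 98.8 and 107 CPM in HD rats 64, 67 and 69. The lowest HD rat, 67, was just above the highest AL rat, 71. The group means were 89.2 ± 5.06 and 107 ± 7.66 CPM (SD, n = 3). This gave a log2 fold change of 0.26 (SE 0.11), with an edgeR P of 0.0457 and an adjusted P of 0.465.

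Idh3a and Idh3g encode the catalytic alpha and a regulatory gamma subunit of the NAD-linked isocitrate dehydrogenase, which makes 2-oxoglutarate and is activated by ADP. Idh3a was at 138, 135 and 124 CPM in rats 61, 71 and 88, and at 165, 150.0 and 149 CPM in rats 64, 67 and 69. Its groups were apart by less than the range within HD, with a log2 fold change of 0.22 (SE 0.10, edgeR adjusted P = 0.503). Idh3g was at 286, 256 and 266 CPM in the same AL rats, and at 334, 304 and 336 CPM in the HD rats. As for Cs, the lowest HD rat was rat 67. The log2 fold change of Idh3g was 0.27 (SE 0.11), with an edgeR P of 0.0398 and an adjusted P of 0.455. The ratio of Idh3a to Idh3g was 0.492 ± 0.0310 in AL and 0.477 ± 0.0287 in HD (SD, n = 3), with overlapping groups (exact permutation test, two-sided, P = 0.6). The gene of the beta subunit, Idh3b, is not analysed here.

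Idh2 encodes the mitochondrial NADP-linked isocitrate dehydrogenase, a source of NADPH for the matrix. It was at 603, 570 and 542 CPM in rats 61, 71 and 88, and at 520, 512 and 675 CPM in rats 64, 67 and 69. Rat 69 was the highest of all 6 rats and rats 64 and 67 the lowest, so the HD group enclosed the AL group. The log2 fold change was -0.01 (SE 0.14, edgeR adjusted P = 0.992), and its sign turned in 4 of the fits with other filters or without 1 rat. The ratio of Idh2 to Idh3a was 4.37, 4.22 and 4.37 in the AL rats and 3.15, 3.41 and 4.53 in the HD rats. It was lower than in any AL rat in rats 64 and 67 and higher in rat 69, with means of 4.32 ± 0.0869 and 3.70 ± 0.733 (SD, n = 3, exact permutation test, two-sided, P = 0.4).

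Ogdh encodes the E1 component of 2-oxoglutarate dehydrogenase, the complex through which carbon from glutamine passes on its way to succinyl-CoA. It had the largest difference of the 9 enzymes. Its level was 223, 300 and 258 CPM in rats 61, 71 and 88, and 392, 298 and 393 CPM in rats 64, 67 and 69. HD rats 64 and 69 were well above all AL rats, but HD rat 67 lay just below AL rat 71, so the groups overlapped. The means were 260 ± 39.0 and 361 ± 54.4 CPM (SD, n = 3), a log2 fold change of 0.47 (SE 0.16), with an edgeR P of 0.0227 and an adjusted P of 0.406. The adjusted P was between 0.207 (DESeq2) and 0.916 over the other fits. The exact permutation test on the same levels gave P = 0.2.

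Suclg1 and Suclg2 encode the alpha subunit and the GTP-specific beta subunit of succinyl-CoA ligase, which makes a nucleoside triphosphate directly. Suclg1 was at 443, 329 and 341 CPM in rats 61, 71 and 88, and at 435, 439 and 332 CPM in rats 64, 67 and 69. Its high rats were 61, 64 and 67 and its low rats 71, 88 and 69, a split that crossed the diets (log2 fold change 0.12, SE 0.17, edgeR adjusted P = 0.871). The fold change rested on single rats, at 0.04 without rat 71 and 0.26 without rat 61. Suclg2 was at 407, 369 and 387 CPM in AL and at 489, 441 and 418 CPM in HD, in the same order of rats. All HD rats were above all AL rats, by the smallest margin between rats 69 and 61, and the log2 fold change was 0.21 (SE 0.11, edgeR adjusted P = 0.565). The ratio of Suclg2 to Suclg1 was 1.06 ± 0.122 in AL and 1.13 ± 0.128 in HD (SD, n = 3, exact permutation test, two-sided, P = 0.6).

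Mdh2 and Mdh1 encode the mitochondrial and the cytosolic malate dehydrogenase, which interconvert malate and oxaloacetate on either side of the inner membrane. Mdh2 was at 561, 461 and 464 CPM in rats 61, 71 and 88, and at 520, 535 and 516 CPM in rats 64, 67 and 69. The highest rat was AL rat 61, while the HD rats were close together (log2 fold change 0.08, SE 0.12, edgeR adjusted P = 0.876). It was 0.18 without rat 61 and 0.03 without rat 71. Mdh1 was at 1002, 870 and 897 CPM in AL and 1109, 1118 and 889 CPM in HD. Rat 69 was below 2 of the AL rats, and the log2 fold change was 0.17 (SE 0.14, edgeR adjusted P = 0.739), or 0.28 without rat 69. The ratio of Mdh2 to Mdh1 was 0.536 ± 0.0219 in AL and 0.509 ± 0.0619 in HD (SD, n = 3, exact permutation test, two-sided, P = 0.5). Over the 4 partner ratios, the Benjamini-Hochberg adjusted P of the exact permutation tests was 0.6 for each.

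With 3 rats against 3, the exact permutation test of a single gene cannot go below P = 0.1, the value it gave for Cs, Idh3a, Idh3g and Suclg2. The rats did not keep 1 order through the cycle. Rat 64 was highest for 3 enzymes (Cs, Idh3a and Suclg2), rat 69 for 3 (Idh2, Idh3g and Ogdh), rat 61 for 2 (Suclg1 and Mdh2) and rat 67 for Mdh1, while rat 71 was lowest for 5 enzymes. The TMM factors, which rescale each library, were 0.943 to 0.953 in rats 61, 64 and 67 and 1.03 or more in rats 69, 71 and 88, the same split as that of Suclg1; the part of this split in the levels was not tested. Scaling by library size alone lowered the median log2 fold change of the 9 enzymes to 0.13 and that of all tested genes to -0.07. The distance between them, 0.21, was unchanged to 2 decimals. No enzyme then had an unadjusted P below 0.05 in edgeR, a P that 10.1% of all tested genes had with this scaling.

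Between genes, levels were compared as TPM, which is scaled to transcript length. Mdh1 was the most abundant at 1250 TPM (mean of 6 rats), followed by Mdh2 at 626, Idh2 at 538 and Suclg1 at 492 TPM. Idh3g at 349, Suclg2 at 294, Ogdh at 149, Cs at 103 and Idh3a at 92.6 TPM came after them, a 13.5-fold range from first to last. Cs and Idh3a were thus the least abundant transcripts of the 9, while Idh3g, for a subunit of the same enzyme as Idh3a, was at 349 TPM. The ranges over the 6 rats were apart between Mdh1 and Mdh2, between Suclg1 and Idh3g and between Suclg2 and Ogdh. Mdh2 and Idh2, Idh3g and Suclg2, and Ogdh and Cs had overlapping ranges but kept their order in 6 of 6 rats. The neighbours Idh2 and Suclg1 were not separable, with Idh2 higher in 3 of 6 rats, and Cs was above Idh3a in 5 of 6 rats.

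**Figure D2:**
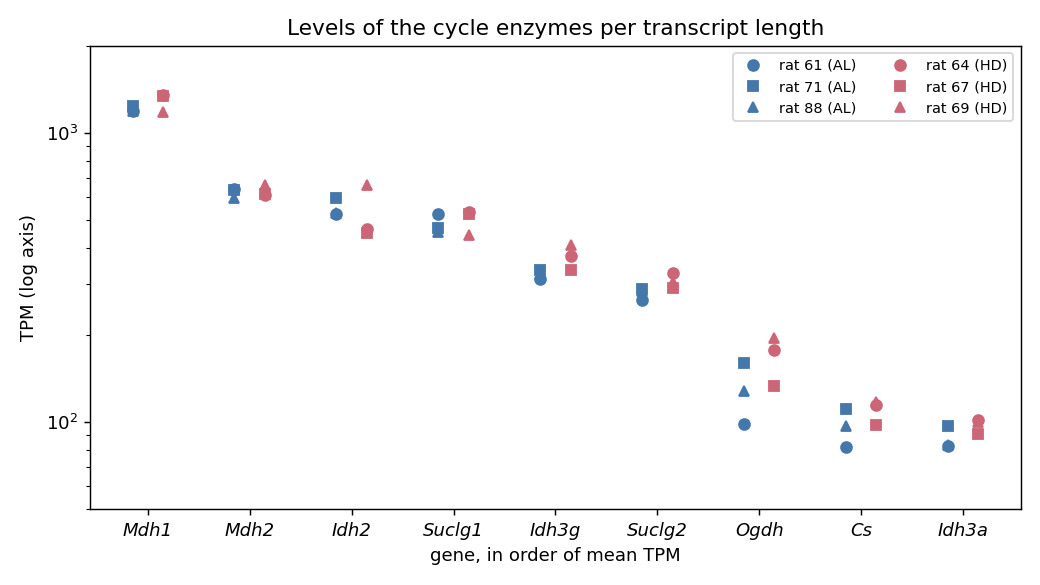
Transcript level of each cycle enzyme as TPM (log axis) in each of the 6 rats, with genes in order of their mean (blue AL, red HD, 1 symbol per rat). Mdh1 stands highest at 1183 to 1353 TPM and Idh3a lowest at 82.7 to 101.5 TPM, and on this scale the diets overlap for every enzyme except Suclg2.

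The remaining enzymes of the cycle were examined as context. Of 10 listed by name, 9 were tested, and all 9 had a higher mean level in HD, with a median log2 fold change of 0.28; 0 had an adjusted P of at most 0.05 in edgeR or in DESeq2, and 2 had an unadjusted P below 0.05 in edgeR. Sdha, the flavoprotein subunit of succinate dehydrogenase, was at 586 ± 62.8 CPM in AL and 744 ± 86.5 CPM in HD (SD, n = 3, log2 fold change 0.34, SE 0.14, edgeR adjusted P = 0.458). Every HD rat was above every AL rat for Sdha. Sdhc, a membrane anchor of succinate dehydrogenase, was the most abundant of this list, at 883 ± 66.9 TPM in AL and 944 ± 66.2 TPM in HD. In CPM the groups overlapped for Sdhc, with a log2 fold change of 0.16 (SE 0.13, edgeR adjusted P = 0.731). Over the whole cycle 17 of 18 tested genes had a log2 fold change above 0 and 5 an unadjusted P below 0.05, beside 51.3% and 4.66% (higher in HD) of all tested genes, and the smallest adjusted P was 0.406.

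**Figure D3:**
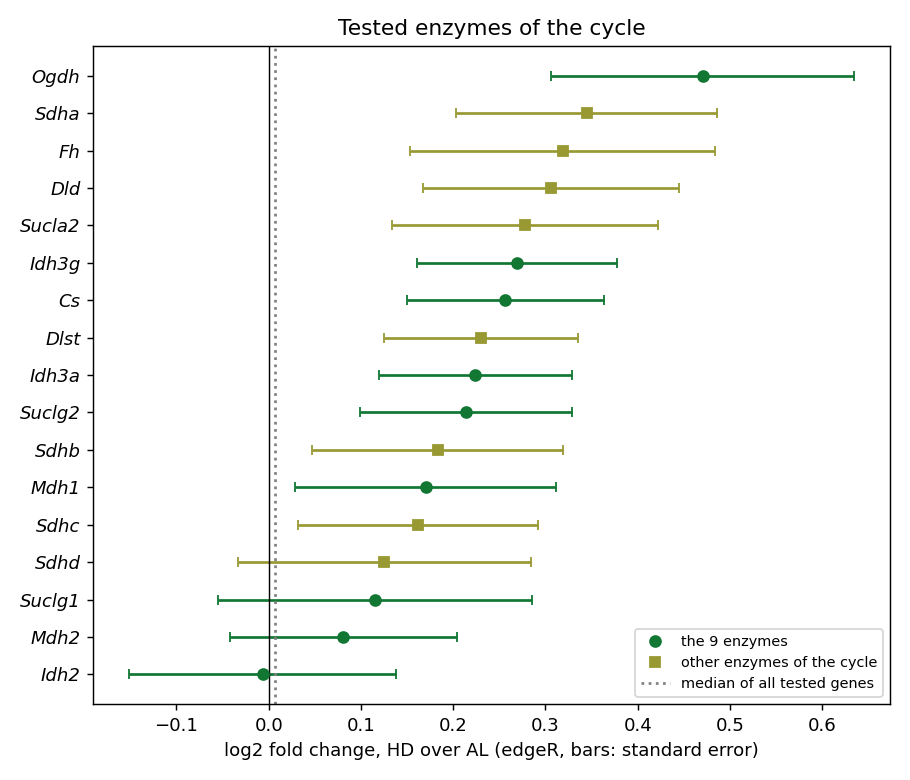
Log2 fold change of HD over AL for 17 tested genes of the cycle (points) with the edgeR standard error (bars); circles are the 9 enzymes described gene by gene, squares 8 other enzymes of the cycle, and the dotted line is the median of all tested genes. Ogdh stands highest at 0.47 and Idh2 lowest at -0.01, and none of the plotted genes passed an adjusted P of 0.05.

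Genes that feed or drain the cycle were examined next. Of 16 such genes, 12 were higher and 4 lower in HD, with 2 and 1 at an unadjusted P below 0.05, where 4.66% of all tested genes were higher and 5.94% lower by that rule. Pc, pyruvate carboxylase, which refills oxaloacetate, was at 331 ± 57.6 CPM in AL and 517 ± 57.8 CPM in HD (SD, n = 3, log2 fold change 0.64, SE 0.16, edgeR adjusted P = 0.378). Acly, which splits exported citrate in the cytosol, had a log2 fold change of 0.58 (SE 0.15, edgeR adjusted P = 0.398). Pck1, which draws oxaloacetate into glucose synthesis, was the most abundant of the list at 1130 ± 571 TPM in AL and 1882 ± 401 TPM in HD (log2 fold change 0.76, SE 0.44, edgeR adjusted P = 0.596). AL rat 71 was far below the others for Pck1, at 724.5 CPM against 2480 CPM or more, and without it the log2 fold change was 0.37. By DESeq2, which called 1.58% of the genes it tested, Pc passed (adjusted P = 0.0246).

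Of 5 tested carriers of cycle intermediates, 5 were higher in HD and 4 had an unadjusted P below 0.05 in edgeR, where 51.3% of all tested genes were higher in HD and 4.66% higher with such a P. The dicarboxylate cotransporters Slc13a3 and Slc13a2, which bring succinate, citrate and 2-oxoglutarate into tubule cells, had log2 fold changes of 0.82 (SE 0.18, edgeR adjusted P = 0.368) and 0.70 (SE 0.14, edgeR adjusted P = 0.352). Both passed in DESeq2, with adjusted P of 0.00415 and 0.00602. The mitochondrial citrate carrier Slc25a1 had a log2 fold change of 0.40 (SE 0.11) and the dicarboxylate carrier Slc25a10, the most abundant of the list, 0.36 (SE 0.15), with edgeR adjusted P of 0.398 and 0.468. Without rat 71 the value of Slc25a10 was 0.23. Slc13a2 and Slc13a3 are carriers of the cell surface and not of mitochondria.

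Of 12 tested genes for the entry of pyruvate, 9 were higher and 3 lower in HD, and 2 had an unadjusted P below 0.05, both higher in HD. Among all tested genes, 51.3% had a log2 fold change above 0 and 4.66% were higher in HD at such a P. Pdk2, a kinase that switches pyruvate dehydrogenase off, had a log2 fold change of 0.39 (SE 0.11, edgeR adjusted P = 0.398, DESeq2 adjusted P = 0.0488). Dlat, the E2 component of pyruvate dehydrogenase, had a log2 fold change of 0.28 (SE 0.12, edgeR adjusted P = 0.466). Mpc1, a pyruvate carrier subunit and the most abundant of this list, was at 987 ± 19.8 TPM in AL and 899 ± 55.7 TPM in HD. In CPM the groups overlapped for Mpc1, with a log2 fold change of -0.06 (SE 0.14, edgeR adjusted P = 0.919).

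A list of 20 genes for mitochondrial content was set beside the cycle, with genes of the respiratory chain and other mitochondrial proteins and the nuclear regulators Ppargc1a and Esrra. Of these, 17 were higher and 3 lower in HD, with a median log2 fold change of 0.16 and 1 gene, Ndufs1 of complex I (log2 fold change 0.33, SE 0.12, edgeR adjusted P = 0.421), at an unadjusted P below 0.05. Among all tested genes, 51.3% had a log2 fold change above 0 and 4.66% were higher in HD at such a P. The summed level of the 20 genes was 14560 to 17400 CPM in AL and 16540 to 17910 CPM in HD, so the groups overlapped. Atp5b, a subunit of ATP synthase and the most abundant of the list, was at 3908 ± 138 TPM in AL and 4308 ± 408 TPM in HD. From the counts its log2 fold change was 0.20 (SE 0.15, edgeR adjusted P = 0.679). The summed level of the 9 cycle enzymes was 3369 to 3746 CPM in AL and 3815 to 4078 CPM in HD, without overlap on this scale. As a share of the library's counts, HD rat 67 (0.3696%) lay below AL rat 71 (0.371%), so by library size alone the groups overlapped. Whether the cycle enzymes differed from mitochondrial content as a whole was not tested.

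Cell type markers also differed in level between the diets, although none had an adjusted P of at most 0.05 in edgeR. Proximal tubule markers, the label check for kidney, were abundant in all rats, with a summed level of 18020 to 20180 CPM in AL and 20010 to 24560 CPM in HD, and 10 of 11 tested were higher in HD, led by the sulfate transporter Slc13a1 (log2 fold change 1.58, SE 0.27, edgeR adjusted P = 0.327). Thick ascending limb markers were lower in 6 of 6, at 5711 to 6542 CPM in AL and 3876 to 6158 CPM in HD. Much of the fall in the sum was that of Slc12a1, the salt transporter of that segment, with means of 1989 and 1094 CPM. Its log2 fold change was -0.86 (SE 0.31, edgeR adjusted P = 0.409), and it alone of the list had an unadjusted P below 0.05. For the other markers the groups overlapped, with log2 fold changes of -0.05 to -0.18. Among all tested genes, 51.3% had a log2 fold change above 0, and 5.94% were lower in HD at such a P. Collecting duct markers summed to 1999 to 2040 CPM in AL and 1676 to 1818 CPM in HD (3 of 8 higher, 5 lower). Aqp2, the most abundant of them, was at 734 ± 99.4 CPM in AL and 709 ± 70.3 CPM in HD, with overlapping groups. The fall in the sum was mainly that of 2 genes, Slc4a1 and Aqp3. Slc4a1 was at 644 ± 76.3 CPM in AL and 437 ± 79.8 CPM in HD, and Aqp3 at 379 ± 67.5 and 286 ± 25.6 CPM (SD, n = 3). The 3 higher markers had log2 fold changes of 0.13 to 0.365, with overlapping groups. Distal convoluted tubule markers (2 of 2 tested higher) summed to 63.0 to 131 CPM in AL and 191 to 699 CPM in HD, and podocyte markers (7 of 7 higher) to 56.6 to 132 CPM and 197 to 422 CPM. Leukocyte markers were lower in 9 of 9, with a median log2 fold change of -1.22. Of these, 5 had an unadjusted edgeR P below 0.05, where 5.94% of all tested genes were lower by that rule. Their sum was 242 to 415 CPM in AL and 146 to 313 CPM in HD. Most of it was Cd74, with means of 227 and 189 CPM and overlapping groups. Endothelial markers (1 of 7 higher, 6 lower) ranged from 169 to 475 CPM in AL and 99.5 to 339 CPM in HD, and those of fibroblasts and smooth muscle (3 of 7 higher, 4 lower) from 107 to 316 CPM and 97.9 to 362 CPM. None of the markers listed in the files was at 0 in all 6 rats. Trpm6 is not analysed here, and Slc5a12 and Pvalb were under the count minimum. The summed markers of proximal tubule, distal convoluted tubule and podocytes were thus higher on average in HD. Those of the thick ascending limb, collecting duct, leukocytes, endothelium, and fibroblasts and smooth muscle were lower. Only for distal convoluted tubule, podocytes and collecting duct were the summed groups apart. The part of these differences in the levels of the cycle enzymes was not tested.

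**Figure D4:**
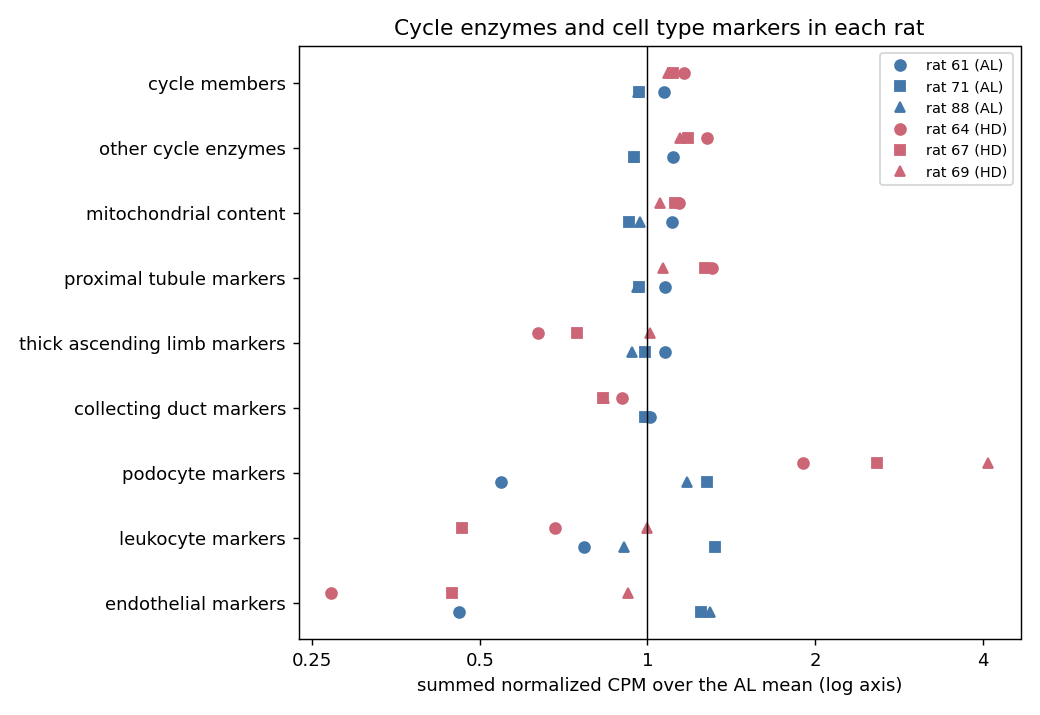
Summed normalized CPM of 9 gene lists in each rat, divided by the AL mean of that list (log axis; blue AL, red HD, 1 symbol per rat). Cycle enzymes sit just above 1 in the HD rats, the podocyte markers of the HD rats lie farthest to the right among the lists plotted, and the collecting duct markers of all HD rats lie to the left of all AL rats.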

How the data were processed

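Poly(A)-selected RNA (TruSeq v2) was sequenced on an Illumina HiSeq as single-end 100-base reads. The authors quantified transcripts with RSEM 1.1.15 at default settings on UCSC gene definitions of rn5 and deposited, for each rat, an estimated count, a posterior mean count and a TPM value per transcript; read filters and strand setting are not given in the sources used here. Estimated counts were summed per gene and rounded. Genes that reached 30 counts in 1 rat or more (11553 of 17051) were tested in 1 fit of all 6 rats with edgeR 4.0.16 (TMM, quasi-likelihood test, R 4.3.3) and Benjamini-Hochberg adjustment; the common biological coefficient of variation was 0.242. DESeq2 1.42.0, used in the study, was an alternative. Exact permutation tests of log2(CPM + 0.5) and of partner ratios enumerated all group assignments. CPM values were set to the TMM library sizes. TPM was used to set levels side by side between genes and to give the levels of some abundant genes by diet. It was also a second scale on which the separation of the diets was counted. GEO labels gave the groups and no batch.

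The members and lists were chosen with earlier results of these data known. All 9 members were named, and some genes of the wider lists that enter the counts are not reported here by name. From the wider lists, genes with an unadjusted P below 0.05 (at most 6 a list, for cell type markers 3) or the highest mean TPM could be named. The alternatives were DESeq2, robust edgeR, other size factors, count filters, the posterior mean count, a pseudocount of 1 and leaving out each rat; the count of enzymes with separate groups on other scales, and fold changes of wider genes without 1 rat, were added after seeing the data.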

Additional observations from a re-analysis of the deposited data

How the results depend on the processing

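No enzyme had an adjusted P of at most 0.05 in any alternative fit, and the number with a log2 fold change above 0 stayed at 8 or 9. Of the fitted fold changes of single enzymes, 113 kept their direction and 4 reversed. Apart from Idh2, which was near 0, sizes moved by over 1.5 times without 1 rat for Suclg1, Mdh1 and Mdh2. With library size alone they did so for these genes and for Idh3a and Suclg2. The log2 fold changes were then 0.0059 for Mdh2, 0.038 for Suclg1, 0.088 for Mdh1, 0.13 for Suclg2 and 0.14 for Idh3a. In the main fit they were 0.08, 0.12, 0.17, 0.21 and 0.22, in the same order. The 4 that reversed were all of Idh2: 0.0067 with every gene above 0 in 1 rat tested, 0.034 without rat 61, 0.054 without rat 64 and 0.065 without rat 67, against -0.0065 (lowest -0.142, without rat 69). The number with an unadjusted P below 0.05 was 3, 0 with library size alone (10.1% of all tested genes), and 0 to 3 when 1 rat was left out. Every HD rat was above every AL rat for 4 enzymes, for 1 in deposited TPM and for 2 with library size alone. For the other cycle enzymes the count at an unadjusted P below 0.05 (2) ranged from 0 to 5 without 1 rat. For pyruvate entry it was 2, and 1 with DESeq2, RLE size factors, library size alone or a minimum of 10 counts in all rats, and 1 to 3 without 1 rat. For mitochondrial content it was 1, 0 with library size alone, 2 with a filter of a count above 0 and 0 to 4 without 1 rat. Of all tested genes, 10.6% had an unadjusted P below 0.05 with all rats and 5.26% to 15.6% without 1 rat. This share was 14.9% without rat 61, the fit that gave the counts of 5 and 4. DESeq2 moved the count at an adjusted P of at most 0.05 from 0 to 1 for pyruvate entry, to 2 for filling and draining genes and to 2 for carriers. It called 1.58% of all genes it tested, where edgeR called 0.0%. The log2 ratio of Idh3a to Idh3g (HD minus AL, -0.04) ranged from -0.081 to 0.0063 without 1 rat, turning to 0.0053 without rat 71 and 0.0063 without rat 69, and that of Suclg2 to Suclg1 (0.09) from -0.0043, without rat 61, to 0.18. Only 1 of 9 enzymes kept its place in the order of levels in CPM, which is not scaled to length. Of the named genes of the wider lists, Mpc1 (-0.064, lowest -0.147 without rat 67) reversed, to 0.025 without rat 61 and 0.0088 without rat 69. The cause was not tested for these moves. No paired analysis was made because the groups were separate rats, assigned to the diets at random. The counts limit these values less than the 3 rats per group.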
